A study of Bos taurus with 4 samples.

Results

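The AP-1 family genes FOS, FOSB, FOSL1, FOSL2, JUN, JUNB, JUND, ATF3, BATF and MAFF were examined in bovine gamma delta T cells after contact with an apple polyphenol extract (APP). They were chosen by gene symbol, all 10 were measured, and they are 10 of the 9155 named genes on the array. Gamma delta T cells are lymphocytes that carry the gamma delta form of the T cell receptor and are abundant in the blood of young cattle. They were sorted from blood of 2 calves, numbered 301 and 303, to a purity above 97%. The protocols give the calves' age as 1 to 6 months, while the design text calls the animals neonatal. After a night of rest the cells of each calf were held for 4 h with APP, stated as 42.2 µg/ml, or with phosphate-buffered saline (PBS) as vehicle. The 4 Affymetrix arrays are therefore 1 PBS and 1 APP array per calf, so that n = 2 calves for every value below. No other agent and no genetic change is named for either group.

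AP-1 is a dimer of basic leucine zipper (bZIP) proteins. FOS proteins pair mainly with JUN proteins, whereas JUN proteins also pair with each other, and ATF3, BATF and the small MAF protein MAFF are relatives that share partners or sites with them. In T cells the genes of several members are switched on within minutes to hours of receptor or growth factor signals that run through MAP kinases, and AP-1 then binds beside NFAT at cytokine genes such as IL2.

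Of the 10 genes, 9 rose with APP and none fell. ATF3 rose 13.1-fold, FOS 6.71-fold, MAFF 6.06-fold, JUNB 4.22-fold, FOSL1 3.85-fold, JUN 3.49-fold, FOSB 2.17-fold, JUND 1.89-fold and BATF 1.50-fold in the mean of the calves, and FOSL2, at 1.19-fold, did not pass. Across all genes 23% rose and 29.7% fell by the same rule, which is an adjusted p under 0.05 in limma, fitted with calf as the blocking factor and adjusted over all 9155 genes. At an unadjusted p under 0.05 in limma all 10 lay on the side of a rise and 0 on the side of a fall. No share of all genes was counted at that unadjusted threshold, so the unadjusted counts here and below have no background to be read against. The median change of the 10 was 1.87 on the log2 scale, against 0.01 for all genes. A rise of at least 2-fold in both calves was seen for 7 of the 10, against 3.5% of all genes. Because the family was picked with earlier results of these arrays in view, these counts describe it and do not test it.

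The deposited values are ratios of each probe set, a group of probes for one transcript, to its own median over the 4 arrays. A log2 ratio of 0 is thus the middle of the 4 arrays, the difference between arrays can be read, and the level of one gene cannot be set against that of another. Where a gene has several probe sets, its value here is their mean on the log2 scale. The array medians were alike, between 0.991 and 0.995. The array's hybridization controls bioB, bioC and bioD, bacterial transcripts that are added in fixed amount, were however higher with APP by 0.76 in calf 301 and 0.94 in calf 303. Scaling to them lowers each change by 0.85 and moves the median of all genes to -0.84, and values on that scale are given with the members below. In pooled cells such as these, a change in the number of responding cells and a change in RNA per cell cannot be told apart. The p-values rest on these 2 calves alone. The spread behind them is drawn mostly from all genes, since the fit had 1 residual and 5.86 prior degrees of freedom.

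Among the JUN genes, JUNB, whose protein can either drive or restrain AP-1 activity depending on its partner, was the most even between the animals. Its log2 ratio was -1.41 and -1.38 in the PBS arrays of calves 301 and 303 and 0.67 and 0.70 in their APP arrays. Both APP arrays lay above both PBS arrays. The change was 2.07 in calf 301 and 2.08 in calf 303 (mean 2.08 ± 0.01, SD, n = 2 calves, adjusted p = 1.64e-05 in limma's test).

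JUN encodes c-Jun, the main transactivating partner and a substrate of the JNK kinases. Averaged over its 5 probe sets, it stood at -1.26 and -1.04 with PBS in calves 301 and 303 and at 0.60 and 0.70 with APP. The groups did not overlap, and the change was 1.86 in calf 301 and 1.74 in calf 303 (mean 1.80 ± 0.09, SD, n = 2 calves, limma adjusted p = 2.41e-05). JUND, which many cells hold at rest, had log2 ratios of -0.42 and -0.57 with PBS and of 0.48 and 0.37 with APP in calves 301 and 303. It changed by 0.90 and 0.94 (mean 0.92 ± 0.02, SD, n = 2 calves, limma adjusted p = 0.000256), the smallest change among the JUN genes.

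The FOS genes covered a wider span. FOS, the classic immediate early gene of the family, stood at -2.34 in the PBS array of calf 301 and at -1.54 in that of calf 303, and at 0.70 and 0.90 in their APP arrays. The PBS arrays differed more from each other than the APP arrays did, by 0.81 against 0.20. The change was 3.05 in calf 301 and 2.44 in calf 303 (mean 2.75 ± 0.43, SD, n = 2 calves, limma adjusted p = 2.43e-05).

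FOSL1 encodes Fra-1, a FOS protein without the strong activation domain of c-Fos that is often made later than FOS. Its log2 ratios were -1.21 and -1.26 with PBS and 0.62 and 0.80 with APP in calves 301 and 303, with no overlap. It changed by 1.84 and 2.05 (mean 1.94 ± 0.15, SD, n = 2 calves, limma adjusted p = 2.31e-05). FOSB changed by 1.12 in each calf (mean 1.12, limma SE 0.09, adjusted p = 0.000112), from -0.68 and -0.71 with PBS to 0.44 and 0.41 with APP.

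FOSL2, the gene of Fra-2, was the member that did not pass. It stood at -0.17 and -0.08 with PBS and at 0.21 and 0.05 with APP in calves 301 and 303, so the APP arrays were the higher pair by a small margin. Its change was 0.38 in calf 301 and 0.13 in calf 303 (mean 0.26 ± 0.18, SD, n = 2 calves, limma adjusted p = 0.0819).

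**Figure D1:**
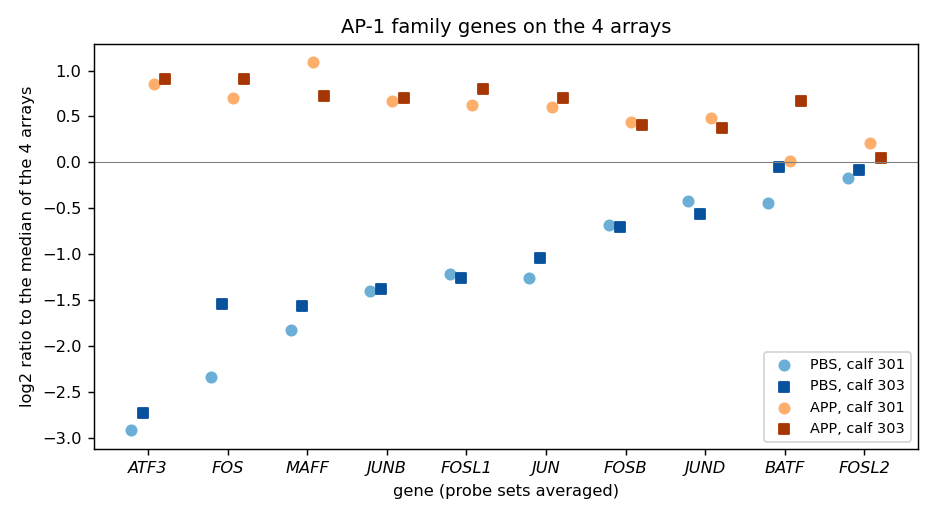
Log2 ratio of each AP-1 family gene to the median of the 4 arrays (vertical axis, probe sets averaged), with 1 point per array and genes ordered by mean change. ATF3 spans the widest range, from -2.92 to 0.91, and FOSL2 the narrowest, from -0.17 to 0.21; the APP points lie above the PBS points for all 10 genes, as they do for 36.6% of all genes (in another 37.2% both APP arrays lie below both PBS arrays).

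ATF3, a stress-responsive factor that often represses its targets, had the largest change of the family with probe sets averaged. On that basis it was the 15th largest rise of all named genes. Taken alone, the FOS probe set Bt.2899.1.S2_at changed by 3.75, against 3.71 for the 1 probe set of ATF3. The log2 ratios of ATF3 were -2.92 and -2.73 with PBS and 0.86 and 0.91 with APP in calves 301 and 303. The change was 3.78 in calf 301 and 3.64 in calf 303 (mean 3.71 ± 0.10, SD, n = 2 calves, limma adjusted p = 4.34e-06). The margin between the lower APP array and the higher PBS array was 3.59.

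MAFF, a small MAF protein that lacks an activation domain of its own, stood at -1.83 and -1.56 with PBS and at 1.09 and 0.72 with APP in calves 301 and 303. It changed by 2.92 in calf 301 and by 2.28 in calf 303 (mean 2.60 ± 0.45, SD, n = 2 calves, limma adjusted p = 3.18e-05). With FOS it had the widest gap between the calves, with the change in calf 303 smaller by 0.63 for MAFF and by 0.60 for FOS. These gaps could not be tested, since 1 array per calf and treatment leaves nothing to test them with.

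BATF, which pairs with JUN proteins and binds with IRF factors in lymphocytes, differed between the animals nearly as much as between the treatments. Its log2 ratios were -0.44 (PBS) and 0.02 (APP) in calf 301 and -0.05 (PBS) and 0.67 (APP) in calf 303. The APP array of calf 301 thus lay only 0.06 above the PBS array of calf 303. The change with APP was 0.46 and 0.72 (mean 0.59 ± 0.18, SD, n = 2 calves, limma adjusted p = 0.00347), and calf 303 stood 0.52 above calf 301 over both treatments (limma adjusted p = 0.074). The rise of BATF did not hold without the replicate block (adjusted p = 0.125 in limma). In unblocked fits without 1 array its change was 0.39 without the PBS array of calf 301, 0.79 without that of calf 303 and 0.26 without the APP array of calf 303, and none of these passed (limma adjusted p = 0.362, 0.113 and 0.352), while 0.91 without the APP array of calf 301 did (0.0272).

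On the calf term of the same fit 0 of the 10 genes passed, against 1.7% of all genes. Ordered by mean change, the 2 calves' changes overlapped between FOS and MAFF and between FOSL1 and JUN, which therefore cannot be ranked against each other. The calves' changes did not overlap between the other neighbours in the order, but 2 values per gene do not settle their rank. The SD between calves ran from 0.0016 (FOSB) to 0.45 (MAFF), with a median of 0.13 for the 10 genes and 0.10 for all genes, and limma's standard error ran from 0.09 to 0.15. The size of a ratio also depends on how far a probe set lies above background, which is unknown here, so the order is one of measured ratios. The order also rests on averaging the probe sets, whose changes ran from 1.74 to 3.75 for FOS and from 0.06 to 2.69 for JUN.

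**Figure D2:**
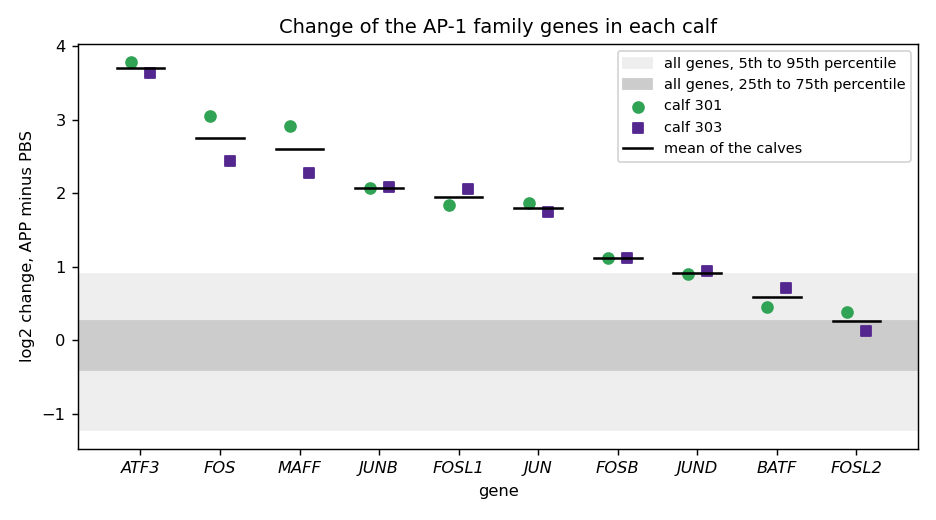
Log2 change with APP (vertical axis, APP minus PBS) of each AP-1 family gene in calf 301 and calf 303, with the mean as a line; the bands show where the mean changes of all genes lie. The 95th percentile of all genes is at 0.90 and the mean changes of 8 of the 10 genes lie above it, while BATF, at 0.59, and FOSL2, at 0.26, lie below.

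The family is covered by 21 probe sets, of which 18 rose, 3 did not pass and 0 fell, against 16.3% of all 24016 probe sets that rose and 23.6% that fell (limma fit over probe sets; the 3 that did not pass had unadjusted p between 0.0718 and 0.801). A rise of at least 2-fold in both calves was found for 12 of the 21, against 2.93% of all probe sets. In 6 of the 10 genes several probe sets could be compared, and they did not always agree in size.

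FOS has 2 probe sets. One, Bt.2899.1.S2_at, had ratios of 0.0981 and 0.232 with PBS in calves 301 and 303 and of 1.74 and 2.37 with APP, which is 17.7-fold in calf 301 and 10.2-fold in calf 303. The other, Bt.2899.1.S1_at, went from 0.395 to 1.53 in calf 301 and from 0.51 to 1.48 in calf 303, or 3.87-fold and 2.90-fold. Both rose in both calves, and the log2 changes were 3.75 and 1.74.

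JUN has 5 probe sets. For 4 of them the mean log2 changes were 1.87, 2.16, 2.24 and 2.69, with the largest for Bt.13134.1.S1_at, whose ratio went from 0.268 to 1.95 in calf 301 and from 0.297 to 1.69 in calf 303. The remaining one, Bt.13134.1.A1_at, changed by 0.23 in calf 301 and -0.11 in calf 303 (mean 0.06, limma adjusted p = 0.731 over probe sets). Its 4 ratios, 0.936 and 1.03 with PBS and 1.10 and 0.96 with APP, overlapped between the groups. One JUN probe set, Bt.9153.1.S1_at, was also higher in calf 303 than in calf 301 over both treatments, by 0.78 (limma adjusted p = 0.0474).

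JUND showed the same kind of spread, with log2 changes of 1.69, 0.84 and 0.23 for its 3 probe sets, the last of which did not pass (Bt.19334.1.A1_at, limma adjusted p = 0.136). The probe sets of FOSB rose by 1.67 and 0.57 and those of BATF by 0.65 and 0.52. FOSL2 had probe sets at 0.44, 0.36 and -0.03. The first 2 of these passed the test over probe sets (limma adjusted p = 0.0375 and 0.0377), and the third did not (adjusted p = 0.861), so that the gene's average missed the threshold.

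The 3 that did not pass all carry the letter A before the last number of their name, and 6 of the 21 probe sets do. All 15 with the letter S rose, and 3 of the 6 with A rose, namely those of FOSL1 and BATF and 1 of FOSL2. With the A probe sets left out, a choice made after the values were seen, JUN changed by 2.24, JUND by 1.26 and FOSL2 by 0.36, and FOSL2 passed (limma adjusted p = 0.0217). FOSL1 has no other probe set and gave no value in that setting.

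**Figure D3:**
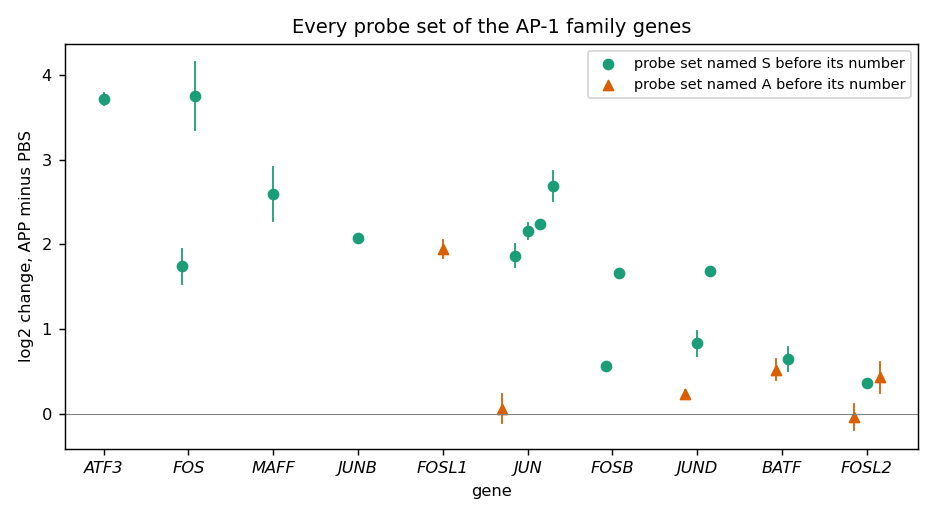
Log2 change with APP (vertical axis) of each of the 21 probe sets of the AP-1 family genes, as the mean of the calves, with a line joining calf 301 and calf 303; the colour and shape give the letter in the probe set's name. The circles (S) lie at 0.36 or higher, while triangles (A) lie near 0 for JUN, JUND and 1 probe set of FOSL2.

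On the scale set by the hybridization controls the family's median was 1.02, against -0.84 for all genes. ATF3 stood at 2.86, FOS at 1.89, MAFF at 1.75, JUNB at 1.23, FOSL1 at 1.09 and JUN at 0.95. FOSB stood at 0.27 and JUND at 0.07, and neither passed. BATF, at -0.26, and FOSL2, at -0.60, turned in sign. By this scaling 6 of the 10 rose and 1, FOSL2, fell, against 286 rises and 8182 falls among all genes, so that rises were 3.38% of the genes called, instead of 43.6% as deposited. For every sample 15 µg of total RNA is stated, so neither scale gives the amount of RNA per cell. Which scaling is the better one was not tested.

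**Figure D4:**
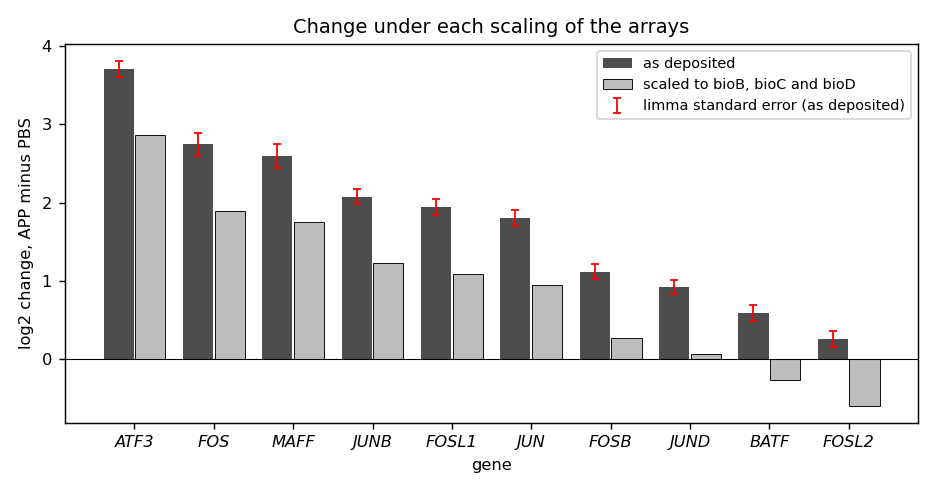
Log2 change with APP (vertical axis, mean of the calves) of each AP-1 family gene as deposited and after scaling the arrays to the hybridization controls; error bars are limma's standard error of the deposited values. Each bar drops by 0.85, which keeps ATF3 to JUN well above 0 and takes BATF to -0.26 and FOSL2 to -0.60.

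For each of the 9 genes that rose, the 3 other genes nearest to it by Euclidean distance over the log2 ratios of the 4 arrays were sought. This distance is small when a gene has the same values on the same arrays, and 4 arrays set few limits on it. ATF3 had few close neighbours, with 6 genes within a distance of 0.5, and the nearest were SLC29A1, a nucleoside transporter gene (0.15), the transcription factor BHLHE40 (0.22) and the nuclear receptor NR4A1 (0.25). FOS had 9 within that distance, led by NUSAP1 (0.38), the lactate transporter gene SLC16A1 (0.39) and AK1 (0.40). MAFF had 19, led by NFIL3 (0.19), which encodes another bZIP factor, the chemokine gene CXCL16 (0.27) and PPP1R15A (0.31).

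JUNB had 57 genes within 0.5, and the nearest were TSR1 (0.07), UTP4 (0.07) and YRDC (0.09), the first pair of which act in ribosome assembly. JUN had 101, led by BYSL (0.05), also a ribosome assembly gene, NEDD9 (0.13) and MYC (0.13). FOSL1 had 88, led by BCAT1 (0.04), which starts the breakdown of branched-chain amino acids, HPCAL1 (0.12) and BRI3BP (0.15). The genes with small changes had crowds of neighbours, 445 for FOSB (METAP1 at 0.04, INPP1 at 0.04, NIBAN1 at 0.05), 863 for JUND (EIF3CL at 0.05, UBFD1 at 0.06, C24H18orf25 at 0.09) and 394 for BATF (AP4S1 at 0.09, GEM and NLGN3 both at 0.15).

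FOS and BATF lie near each other in the bovine genome. In the RefSeq annotation of ARS-UCD2.0 the 1 protein-coding gene between them is JDP2, another bZIP gene, which had no probe set named here and was not analysed here.

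The other lists describe the genes around AP-1, and their counts stand beside the 23% of genes that rose and the 29.7% that fell. Those shares hold for the adjusted threshold, the deposited values and the blocked fit. Scaled to the hybridization controls 286 of all 9155 genes rose and 8182 fell, and list counts on that scale stand beside these. In unblocked fits without 1 array fewer of all genes passed too, so a smaller list count there is not by itself particular to the list. Of 18 other bZIP genes measured, 10 rose, 3 fell and 5 did not pass, with a median change of 0.30. NFIL3, a repressor with roles in lymphocyte development, changed by 3.0 in calf 301 and 2.42 in calf 303. MAFG, a small MAF gene like MAFF, changed by 1.73 and 0.94, CEBPG by 1.10 and 0.94, and NFE2L2, which encodes the antioxidant regulator NRF2, by 0.59 and 0.60. The 2 probe sets of NFE2L2 differed, with 0.11 and 1.09. The genes that fell were CREB3, which encodes a factor held in the endoplasmic reticulum membrane (-1.26 and -1.19), HLF (-0.99 and -1.03, with probe sets at -1.53 and -0.48) and ATF1, of the CREB group (-0.38 and -0.39, with -0.72 to -0.09 over its 3 probe sets). When scaled to the hybridization controls 2 of the 18 rose and 13 fell. NFE2L2 stood at -0.25 there, and CEBPG, at 0.17, did not pass. In unblocked fits without 1 array fewer of the 18 rose, as fewer of all genes did. The list's median was 0.35 without the PBS array of calf 301 and 0.32 without its APP array. Without the PBS array of calf 303 it was 0.26. ATF1 did not pass without any 1 of the arrays, nor with the A probe sets left out (-0.22, limma adjusted p = 0.106).

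Kinase genes upstream of AP-1 went mostly the other way. Of the 14 on the array, 9 fell and 2 rose, while 3 missed the threshold, with a median of -0.64 (12 fell and 1 rose when scaled to the hybridization controls). Within the p38 branch MAP2K6, an activator of p38, had changes of -3.36 and -3.03 in calves 301 and 303. MAPK14, p38 alpha itself, had changes of -1.41 and -1.47. MAP2K3, another activator of p38, changed in the opposite direction, by 2.24 and 2.51, while MAP2K4, which acts on JNK and also on p38, changed by -0.65 and -0.43. RPS6KA5, which encodes the kinase MSK1 downstream of ERK and p38, changed by -1.39 in each calf. MAPK8 (JNK1) changed by -0.59 and -0.92, and it and MAP2K4 are named for their roles, outside the naming rule. The second gene that rose was RPS6KA3, a kinase of the RSK group that ERK activates (1.20 and 1.08), which stood at 0.29 when scaled to the controls and then did not pass. In unblocked fits fewer of the 14 fell without the PBS array of calf 301 (median -0.66) or that of calf 303 (-0.54).

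Of 5 measured genes for factors that act on the FOS and JUN promoters, 3 rose and 0 fell in limma. At an unadjusted p under 0.05 these were 4 and 0, with no share of all genes counted there. STAT3 changed by 0.63 in calf 301 and 0.72 in calf 303, SRF, the serum response factor, by 0.64 and 0.70, and CRTC2, a coactivator of CREB, by 0.26 and 0.28. All of them turned in sign when scaled to the hybridization controls, to -0.17 for STAT3, -0.18 for SRF and -0.58 for CRTC2. CRTC2 also missed the threshold without the replicate block (limma adjusted p = 0.0795). In unblocked fits fewer of the 5 rose without the APP array of calf 301 (median 0.35) or the PBS array of calf 303 (0.30).

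Genes that limit AP-1 split into 6 that rose and 5 that fell among 11 measured. SPRY1, an inhibitor of the ERK pathway, had changes of 4.90 and 4.28 in calves 301 and 303. DUSP1, a phosphatase of JNK and p38, had changes of 3.10 and 2.58. The mRNA decay factor genes ZFP36L1 (1.80 and 1.84, with 1.43 to 2.01 over 3 probe sets) and ZFP36 (0.99 and 1.18) rose, while ZFP36L2, of the same family, fell (-1.08 and -0.44, with probe sets at -1.29 and -0.24). The ubiquitin ligase genes NEDD4L (-0.91 and -0.71) and ITCH, whose protein marks JUN proteins for degradation (-0.92 and -0.37), fell as well, whereas FBXW7, another ubiquitin ligase gene whose protein acts on JUN, rose (0.44 and 0.89; chosen for naming after its values were seen). ITCH did not pass without the replicate block (limma adjusted p = 0.114). On the scale of the controls 3 rose and 5 fell, with ZFP36 at 0.23 and not passing. In unblocked fits without 1 array fewer of the 11 fell. The list's median was 0.60 without the PBS array of calf 301 and 0.96 without its APP array. Without the PBS array of calf 303 it was 0.74.

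Few partners at composite sites were measured, and 1 of 3 rose and 1 fell. IRF8, an interferon regulatory factor that can bind with BATF and JUN, changed by 2.39 in calf 301 and 2.34 in calf 303, although its 2 probe sets gave 0.98 and 3.75. ETS1 changed by -0.28 and -0.49, which did not pass without the replicate block (limma adjusted p = 0.185) or without either PBS array or the APP array of calf 303, and NFATC3 changed by -0.18 and -0.23 (adjusted p = 0.107).

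Of 27 measured genes known as AP-1 targets in T cells or other cells, 17 rose, 1 fell and 9 did not pass, with a median of 0.57 (9 rose and 13 fell when scaled to the hybridization controls, median -0.29). The list was drawn up with earlier results of these arrays known and is no independent evidence of its direction. CSF2, the GM-CSF gene, changed by 5.78 in calf 301 and 7.04 in calf 303, PLAU, which encodes urokinase, by 5.27 and 4.81, IL2 by 3.16 and 5.17, and the early activation antigen gene CD69 by 2.82 and 2.61. In unblocked fits without 1 PBS array fewer of the 27 rose, as fewer of all genes did. The median was 0.60 without the PBS array of calf 301 and 0.53 without that of calf 303. The target that fell was VIM, the vimentin gene (-0.52 and -0.27), which did not pass without the replicate block (limma adjusted p = 0.128) or without any 1 of the arrays. Genes of the list that did not pass include IFNG (-0.06 and 0.01, limma adjusted p = 0.838), MMP1, a collagenase gene with a classic AP-1 site (0.02 and 0.08, adjusted p = 0.691), IL4 (0.08 and 0.25, adjusted p = 0.199) and IL5 (0.52 and 0.06, adjusted p = 0.098). These were chosen for naming after their values had been seen.

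**Figure D5:**
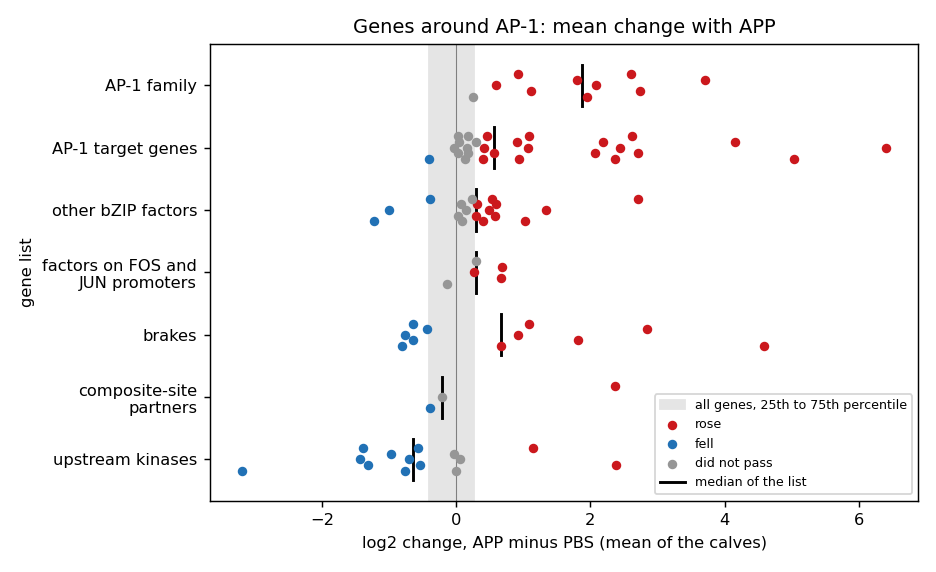
Log2 change with APP (horizontal axis, mean of the calves, as deposited) of each measured gene in the AP-1 family and in 6 lists around it, coloured by the result of limma's test; the black line is the list's median. The family's median lies at 1.87, that of the targets at 0.57 and that of the upstream kinases at -0.64.

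Because levels are lost in these ratios, the sorted cell type could not be checked against the presence of its markers, and only the markers' changes can be given. The counts stand beside the same shares of all genes, 23% that rose and 29.7% that fell. Those shares hold for the adjusted threshold, the deposited values and the blocked fit. In unblocked fits without 1 array fewer of all genes passed too. Of 7 measured genes listed as gamma delta T cell markers 1 rose and 4 fell (-1.58 to 0.62). They are CD3D, CD3E, CD3G, CD247, CD5, CD7 and CD163L1, most of which other T cells also carry. Of 7 monocyte and macrophage markers 2 rose and 0 fell in limma (-0.21 to 2.31), and the rise of CD68, which reached 2.31, was the largest of all the markers. At an unadjusted p under 0.05 the counts for the monocyte and macrophage markers were 3 and 0, with no share of all genes counted there. Both measured B cell markers fell (-0.80 and -0.56), though the 2 probe sets of MS4A1, the one at -0.56, gave -1.08 and -0.04. Of 3 alpha beta T cell markers and 3 NK cell markers 1 of each rose and 1 of each fell. Neither platelet marker passed (0.01 and 0.11). When scaled to the hybridization controls 6 of the gamma delta T cell markers fell, and of the monocyte and macrophage markers 6 fell and 1 rose. On that scale 8182 of all 9155 genes fell and 286 rose. In unblocked fits fewer gamma delta T cell markers fell without the PBS array of calf 301 (median -0.42) or that of calf 303 (-0.51). Fewer monocyte and macrophage markers rose without these (medians -0.004 and 0.11) or without the APP array of calf 301 (0.06). The part of the markers in the changes of the AP-1 genes was not tested.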

How the data were processed

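The authors' deposited table holds linear ratios for 24128 probe sets on 4 arrays. RMA is named per the submitters' processing notes, with no version or options. The unit was found from the values: the mean of the 2 middle ratios of a probe set lay between 0.986 and 0.9995 for the central 98% of probe sets. The 112 control probe sets were left out, which left 24016, and 13292 of these had 1 gene symbol (86 had several and were not named). Symbols were updated by identifier for 13263 through the RefSeq table of ARS-UCD2.0. Log2 ratios of a gene's probe sets were averaged, giving 9155 genes.

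APP was compared with PBS in limma 3.58.1 (R 4.3.3; lmFit and eBayes, two-sided, Benjamini-Hochberg over all genes, threshold 0.05) with the calf as a block, because each calf gave both a PBS and an APP array. The gap between calves in the PBS arrays followed that in the APP arrays (r = 0.514 over probe sets, which are not independent). The fit had 1 residual and 5.86 prior degrees of freedom. An exact permutation test of 2 arrays against 2 that ignores the pairing by calf cannot go below p = 0.33 and was not made. One that keeps the pairing has fewer arrangements still, and was not made either. The script was tested on simulated data with a small share of changed genes and noise drawn from the spread limma estimated here. In the real arrays far more genes passed, so that test checks the code and not the calls.

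Members and lists were chosen with earlier results of these data known. The genes named are all members, up to 4 that rose most and 3 that fell most per list, and the 3 nearest profiles of each member called. Of the markers 24 of 32 were measured. The number of arrays limits the precision. Promoter and protein sequences were planned but not used here.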

Additional observations from a re-analysis of the deposited data

Results flagged for a closer look

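The hybridization controls bioB, bioC and bioD, 14 probe sets that enter no comparison of genes, were higher in the APP arrays by 0.85 on the log2 scale in the mean of the calves, with mean log2 ratios of -0.48 (PBS) and 0.28 (APP) in calf 301 and -0.39 (PBS) and 0.55 (APP) in calf 303. They were picked out because this signal lies outside the measured genes and stands above the PBS arrays in both calves.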

How the results depend on the processing

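The count of AP-1 family genes that rose was 9 as deposited, after median centring, after quantile normalization, with probe sets of suffixed names left out, with robust eBayes and with the A probe sets left out, a setting added after the data were seen. It was 8 without the replicate block, where BATF was lost, and 8 to 9 when 1 array was left out in an unblocked fit. The count that fell was 0 in all of these. Scaled to the hybridization controls 6 rose and 1 fell. That fit gave infinite prior degrees of freedom, so its adjusted p-values rest on 1 spread shared by all genes. There BATF (-0.26) and FOSL2 (-0.60) reversed, as did NFE2L2 (-0.25), STAT3 (-0.17), SRF (-0.18), CRTC2 (-0.58), AP4S1 (-0.19), GEM (-0.40) and NLGN3 (-0.16). With it 16 genes of the lists around AP-1 rose and 48 fell, instead of 39 and 19, and 286 of all genes rose and 8182 fell, instead of 2104 and 2717. Without the replicate block 1399 of all genes rose and 2161 fell, and 30 and 16 of the listed genes. Leaving out 1 array gave 22 to 32 listed genes that rose and 9 to 15 that fell, and 745 to 1292 and 1305 to 2012 of all genes. The lowest counts came without the PBS array of calf 303, except for the 9 listed genes that fell without that of calf 301. Beside BATF, the named genes ATF1, CRTC2 and VIM missed the threshold without any 1 of the arrays, AP4S1, GEM, NLGN3 and ETS1 without either PBS array or the APP array of calf 303, ITCH without either PBS array (-0.76 and -0.53) or the APP array of calf 301 (-0.26), STAT3 without the PBS array of calf 303 (0.51) or the APP array of calf 301 (0.55), ZFP36L2 without either array of calf 301 (-0.56 and -0.65) and NFE2L2 without the PBS array of calf 303 (0.51), with no change of direction. With the A probe sets left out ATF1 (-0.22), CRTC2 (0.27) and ETS1 (-0.34) missed the threshold. The causes were not tested. The small number of calves and the lost levels limit what can be read.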

Other observations

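The letter in a probe set's name went with the size of change beyond the AP-1 genes. Over the whole array 31.5% of 9438 probe sets with the letter A and 45.4% of 14578 with S passed the test in either direction, with median absolute log2 changes of 0.21 and 0.32. Among those with 1 gene name the shares were 38.8% of 3726 and 46.4% of 9566. In 1577 genes with both kinds, the S probe sets had the larger mean absolute change in 54.8%. What the letters stand for is not given in the sources used here.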
